A study of Homo sapiens with 12 samples.

Results

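The nuclear genes for the subunits of oxidative phosphorylation (OXPHOS) were followed in 4 synovial sarcoma (SS) cell lines treated with ZSTK474, an inhibitor of the class I PI3K isoforms. Members were the genes with a probe set annotated with exactly 1 gene symbol that follows the name pattern of the subunits of complexes I to V (NDUF, SDH, UQCR and CYC1, COX and ATP5 symbols). The brightest such probe set stood for each gene. Of 19775 genes with a probe set of 1 symbol, 75 matched. They are 74 protein coding genes and the pseudogene *ATP5MC2P1*. Probe sets with a mean signal over the table's median were tested, which left 12132 genes, 71 of them members. *COX6A2*, *COX7B2* and *COX8C* were too dim to be tested. For *ATP5MF* the only probe set of 1 symbol was too dim, but the gene is also read by a probe set with several symbols, which was not analysed here. *NDUFS5*, *NDUFS8*, *NDUFC2* and *UQCRH* are read only by probe sets with several symbols and were not analysed here.

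Each line was cultured for 24 h with ZSTK474 at 3 µM, with ZSTK474 at 0.3 µM, or as a control at 0 µM, and its RNA was hybridized to an Affymetrix U133 Plus 2.0 array. There was 1 array per line and dose, 12 in all. Aska-SS and Yamato-SS carry the fusion gene *SS18-SSX1*, and SYO-1 and Fuji carry *SS18-SSX2*. Each line derives from a single tumor, and the sources used here do not say whether its cultures at the 3 doses were set up independently. The 4 lines served as the replicates (n = 4 in each test of dose). The fit removes differences in level between the lines. The p-values of dose therefore measure only how far the changes with dose vary between these 4 lines. In a bulk measurement such as this one, fewer cells of one kind and less RNA per cell cannot be told apart.

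OXPHOS couples the oxidation of NADH and succinate to the synthesis of ATP at the inner mitochondrial membrane. Complexes I (NADH dehydrogenase) and II (succinate dehydrogenase) pass electrons to ubiquinone, complex III hands them to cytochrome c, and complex IV (cytochrome c oxidase) reduces oxygen. Complexes I, III and IV pump protons, and complex V (ATP synthase) uses the proton gradient. A few catalytic subunits are encoded by mitochondrial DNA, whereas all the genes described here are nuclear, and many of their promoters are known to bind the transcription factors NRF1 and GABP, a member of the ETS family.

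The SS markers *TLE1*, *FZD10*, *PRAME*, *BCL2* and *SS18* passed the filter on dim probe sets, 5 of 5. Of 7 leukocyte markers 5 had a probe set of 1 symbol, and only *CD79A* passed the filter, with a log2 signal of 6.93 to 8.10, close to the filter at 6.03. *CD14* lay at the lowest value of the table on every array. As a measure of RNA quality, the log2 3′/5′ ratio of beta actin differed between 3 and 0 µM by 0.59 in Fuji, 0.21 in Aska-SS, 0.20 in Yamato-SS and 0.12 in SYO-1. The ratio of *GAPDH* differed by -0.13 to 0.15. The part of RNA quality in the changes below was not tested.

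Promoters were looked up because the OXPHOS genes moved together as a group. RefSeq promoters (assembly GRCh38.p14, 250 bases before to 50 bases after the transcription start) were found for 63 of the 74 protein coding members. They are shown for the largest fall in complex I (*NDUFS6*), a complex I and a complex III gene that fell already at 0.3 µM (*NDUFA9* and *UQCRQ*), a complex IV gene that has both motifs (*COX6A1*) and the ATP synthase gene that rose (*ATP5MC2*). Capitals mark the NRF1 motif GCGCANGCG, where N is any base, and the ETS motif CCGGAAG, each searched on both strands, so that the reverse complement is marked too. *NDUFS6* lies at chr5:1801157-1801456 (plus strand), *NDUFA9* at chr12:4648864-4649163 (plus strand), *UQCRQ* at chr5:132866392-132866691 (plus strand), *COX6A1* at chr12:120437863-120438162 (plus strand) and *ATP5MC2* at chr12:53676034-53676333 (minus strand).
NDUFS6: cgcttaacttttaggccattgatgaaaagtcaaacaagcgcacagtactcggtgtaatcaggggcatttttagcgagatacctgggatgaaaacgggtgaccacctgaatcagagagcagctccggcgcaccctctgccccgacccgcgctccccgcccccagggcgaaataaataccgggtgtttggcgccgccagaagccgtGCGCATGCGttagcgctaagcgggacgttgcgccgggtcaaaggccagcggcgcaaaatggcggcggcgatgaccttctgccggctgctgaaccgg
NDUFA9: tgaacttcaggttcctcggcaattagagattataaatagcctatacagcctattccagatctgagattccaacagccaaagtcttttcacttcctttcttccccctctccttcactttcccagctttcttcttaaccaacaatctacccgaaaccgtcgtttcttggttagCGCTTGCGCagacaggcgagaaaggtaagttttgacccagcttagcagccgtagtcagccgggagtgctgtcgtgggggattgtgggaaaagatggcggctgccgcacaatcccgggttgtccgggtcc
UQCRQ: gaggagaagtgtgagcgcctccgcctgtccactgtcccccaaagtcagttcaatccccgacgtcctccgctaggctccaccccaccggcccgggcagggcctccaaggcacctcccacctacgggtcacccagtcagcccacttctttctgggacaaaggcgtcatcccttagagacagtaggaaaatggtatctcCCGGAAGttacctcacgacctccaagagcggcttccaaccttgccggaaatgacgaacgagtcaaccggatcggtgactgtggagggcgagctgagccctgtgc
COX6A1: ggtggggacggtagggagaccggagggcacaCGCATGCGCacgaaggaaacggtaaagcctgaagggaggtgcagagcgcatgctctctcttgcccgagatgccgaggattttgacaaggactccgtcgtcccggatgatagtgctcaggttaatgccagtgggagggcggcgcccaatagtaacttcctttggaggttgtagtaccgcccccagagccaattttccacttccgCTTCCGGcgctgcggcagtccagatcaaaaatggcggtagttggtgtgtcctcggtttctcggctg
ATP5MC2: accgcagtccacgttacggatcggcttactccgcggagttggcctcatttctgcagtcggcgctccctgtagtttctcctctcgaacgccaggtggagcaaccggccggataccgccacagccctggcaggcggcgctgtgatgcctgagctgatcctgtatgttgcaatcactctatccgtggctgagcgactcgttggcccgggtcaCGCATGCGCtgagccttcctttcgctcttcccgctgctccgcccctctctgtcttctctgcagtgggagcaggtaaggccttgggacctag

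Counted to its first base, the NRF1 motif lies 46 bases before the start of *NDUFS6*, 79 before that of *NDUFA9*, 219 before that of *COX6A1* and 41 before that of *ATP5MC2*. The ETS motif lies 54 bases before the start of *UQCRQ* and 16 before that of *COX6A1*. Among the 63 promoters of members, 21 (33.3%) held the NRF1 motif, against 8.05% of all 27305 promoters of the table, and 17 (27.0%) held the ETS motif, against 10.7% of all. The NRF1 motif was present in 14 of 40 promoters of members that fell at 3 µM, in 1 of 3 that rose and in 5 of 17 that did not pass. The ETS motif was present in 13 of the 40, in 0 of the 3 and in 4 of the 17. A match describes letters, not a bound site.

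At 3 µM ZSTK474 most OXPHOS genes were expressed at a lower level than at 0 µM. Of the 71 members, 45 fell and 5 rose, whereas 21 did not pass (limma blocked by cell line, Benjamini-Hochberg adjusted p under 0.05 over all 12132 genes). This is 63.4% of the members in the lower direction, where 21.1% of all genes tested were lower, and 7.04% in the higher direction, where 22.6% of all genes were higher. Of those that fell, 41 were lower in 4 of 4 lines. The exceptions were *NDUFA2*, *UQCR11*, *ATP5IF1* and *ATP5F1B*, lower in 3 lines. The median log2 change of the members was -0.28, beside 0.01 for all genes tested, so that the typical change was small. The lowest was -1.12, a fall to 0.46 of the control signal. In 17 members the 4 signals at 3 µM did not overlap the 4 at 0 µM, 16 of them below, beside 11.3% of all genes for both directions. Without the cell line as a block 5 members fell (*ATP5MC1*, *NDUFA11*, *NDUFA13*, *COX7B* and *COX6A1*) and 0 rose (limma, 25 and 2 at an unadjusted p under 0.05), where 1.72% of all genes were lower.

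**Figure D1:**
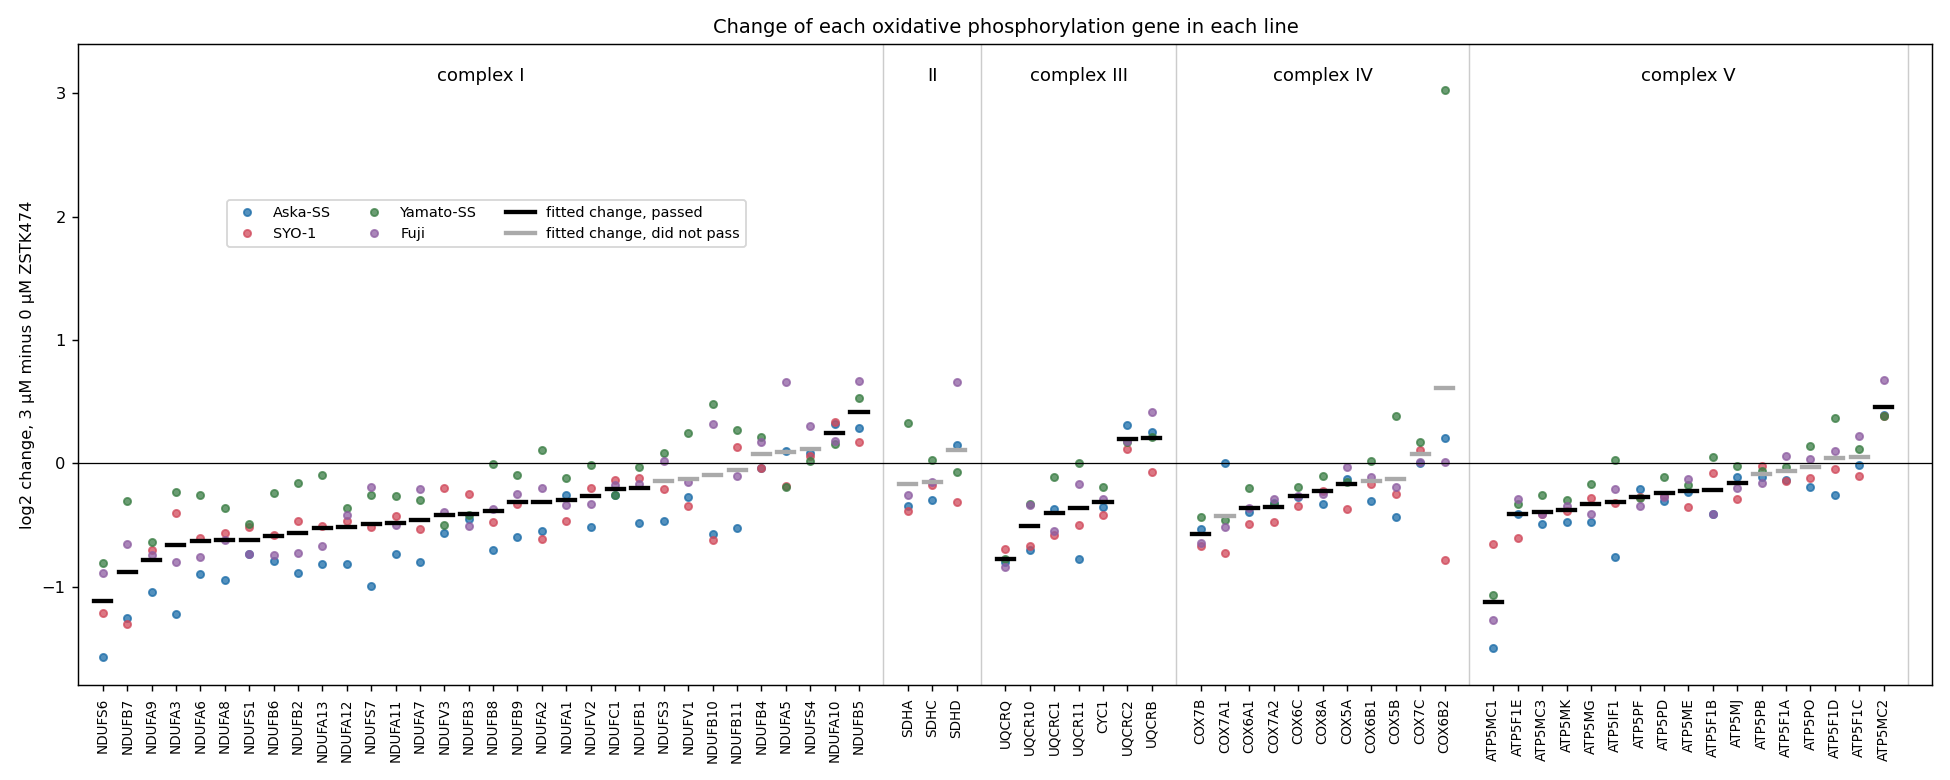
Log2 change at 3 µM relative to 0 µM ZSTK474 (vertical axis) of the 70 tested protein coding members, grouped by complex and ordered by change. Points are the 4 cell lines and bars the fitted change, black where it passed and grey where it did not. In complexes I, III, IV and V most bars lie below 0, and the point at 3.03 is *COX6B2* in Yamato-SS, whose signal at 0 µM was at the floor.

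By complex, 23 of 32 tested genes of complex I fell and 2 rose, with a median log2 change of -0.40. Of 3 genes of complex II, 0 fell and 0 rose (limma, also 0 and 0 at an unadjusted p under 0.05), with a median of -0.15. In complex III 5 of 7 fell and 2 rose (median -0.36), in complex IV 6 of 11 fell and 0 rose (limma, also 0 at an unadjusted p under 0.05, median -0.22), and in complex V 11 of 17 fell and 1 rose (median -0.22). Whether the complexes differ from each other was not tested.

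In the following, the values of the 4 lines are log2 normalized signals in the order Aska-SS, then SYO-1, then Yamato-SS, then Fuji. In complex I the falls were spread over core and accessory subunits. *NDUFS6*, an accessory subunit of the arm that reaches into the matrix, had signals of 10.85, 11.90, 11.81 and 11.71 at 3 µM, against 12.42, 13.11, 12.62 and 12.59 at 0 µM. Every line was lower at 3 µM and the groups did not overlap. The log2 change was -1.12 (standard error 0.11, limma adjusted p = 2.2e-05), or 2.17-fold lower. *NDUFB7*, an accessory subunit of the membrane arm, had 10.50, 10.72, 11.38 and 10.81 at 3 µM, against 11.76, 12.02, 11.68 and 11.46 at 0 µM. The groups did not overlap either, although the fall in Yamato-SS was small (-0.30, where SYO-1 fell by 1.31), and the log2 change was -0.88 (standard error 0.16, limma adjusted p = 0.00083). *NDUFA9*, an accessory subunit near the junction of the arms, had 10.62, 11.55, 11.32 and 11.04 at 3 µM, against 11.66, 12.25, 11.95 and 11.78 at 0 µM, without overlap. It fell by 0.78 (standard error 0.09, limma adjusted p = 5.0e-05).

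*NDUFS1*, the largest core subunit, which carries iron-sulfur clusters from NADH towards ubiquinone, had 9.77, 11.20, 10.93 and 10.95 at 3 µM, against 10.50, 11.72, 11.42 and 11.69 at 0 µM. Each line fell, by 0.49 to 0.74, but Aska-SS was so low at each dose that the groups overlapped. *NDUFA6*, an accessory subunit of the matrix arm, had 11.17, 12.77, 12.42 and 12.40 at 3 µM, against 12.07, 13.37, 12.68 and 13.16 at 0 µM. Each line fell here too, by 0.26 in Yamato-SS to 0.90 in Aska-SS. The groups overlapped even apart from Aska-SS, as SYO-1 at 3 µM lay above Yamato-SS at 0 µM. The log2 changes were -0.62 for *NDUFS1* (standard error 0.08, limma adjusted p = 0.00013) and -0.63 for *NDUFA6* (standard error 0.09, limma adjusted p = 0.00025). Of 5 core subunits tested, *NDUFS1*, *NDUFS7* and *NDUFV2* fell, while *NDUFS3* (-0.14) and *NDUFV1* (-0.13) did not pass. *NDUFV2* (-0.27) did not pass without Aska-SS, SYO-1 or Fuji (adjusted p = 0.132, 0.053 and 0.070). Of 27 accessory subunits 20 fell and 2 rose. *NDUFB5*, an accessory subunit of the membrane arm, had 13.08, 13.40, 13.31 and 13.63 at 3 µM, against 12.80, 13.23, 12.77 and 12.96 at 0 µM. It was higher in every line, with overlapping groups, and rose by 0.42 (standard error 0.08, limma adjusted p = 0.0012). *NDUFA10*, of the same arm, had 11.35, 12.32, 11.88 and 11.94 at 3 µM, against 11.02, 11.98, 11.72 and 11.76 at 0 µM. Its log2 change of 0.25 lay just past the threshold (limma adjusted p = 0.048) and did not pass without Aska-SS, SYO-1 or Yamato-SS, with adjusted p-values of 0.136, 0.161 and 0.079. The call was also lost without quantile normalization (limma adjusted p = 0.129), without the filter on dim probe sets (0.085) and without variance moderation (0.085). The same held with the mean of probe sets (0.051), 2 doses only (0.080) and array weights (0.122).

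None of the 3 tested genes of complex II passed. *SDHA*, the flavoprotein that oxidizes succinate, had 10.85, 11.17, 11.14 and 10.79 at 3 µM, against 11.20, 11.56, 10.81 and 11.05 at 0 µM, lower in 3 lines and higher in Yamato-SS (log2 change -0.17, standard error 0.12, limma adjusted p = 0.31). Without Yamato-SS it passed as lower, at -0.33 (limma adjusted p = 0.029). The membrane anchor genes *SDHC* (log2 change -0.15, standard error 0.07, limma adjusted p = 0.13) and *SDHD* (0.11, standard error 0.13, limma adjusted p = 0.54) did not pass either, but *SDHC* did without quantile normalization, at -0.24 (limma adjusted p = 0.019). *SDHD* was higher by 0.66 in Fuji and lower by 0.31 in SYO-1, and without Fuji its log2 change was -0.08.

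Every tested gene of complex III passed, in either direction. *UQCRQ*, a small accessory subunit, had 13.23, 12.88, 12.48 and 13.10 at 3 µM, against 14.03, 13.58, 13.26 and 13.94 at 0 µM. The 4 falls were nearly equal, from 0.70 to 0.84, and the groups did not overlap. The log2 change was -0.78 (standard error 0.06, limma adjusted p = 7.3e-06), the smallest p among the members. *UQCR10*, another small subunit, fell by 0.51 (standard error 0.08, limma adjusted p = 0.00027), with 11.73, 13.09, 13.00 and 13.12 at 3 µM, against 12.43, 13.76, 13.33 and 13.45 at 0 µM, and was lowest in Aska-SS at each dose. *UQCRC1*, a core protein, had 12.02, 11.22, 12.04 and 11.68 at 3 µM, against 12.39, 11.81, 12.15 and 12.23 at 0 µM (log2 change -0.40, limma adjusted p = 0.0035). *CYC1*, which encodes the heme protein cytochrome c1, fell by 0.31 (limma adjusted p = 0.0027). The fall of *UQCR11* (log2 change -0.36, limma adjusted p = 0.015) was less stable, and Yamato-SS was higher by 0.005. It did not pass without Aska-SS or SYO-1 (adjusted p = 0.124 and 0.085), nor with 2 doses only (0.054). The call was also lost without the filter on dim probe sets (0.069) and without variance moderation (0.075). The other core protein gene, *UQCRC2*, rose, with 13.15, 13.29, 12.92 and 12.94 at 3 µM, against 12.84, 13.17, 12.75 and 12.76 at 0 µM (log2 change 0.20, standard error 0.06, limma adjusted p = 0.025). *UQCRB*, an accessory subunit, was higher in 3 lines and lower by 0.07 in SYO-1 (log2 change 0.20, standard error 0.07, limma adjusted p = 0.032). Neither rise passed without Aska-SS (adjusted p = 0.146 for *UQCRC2* and 0.126 for *UQCRB*) or without Yamato-SS (0.061 and 0.09). For *UQCRB* the same held without Fuji (0.174). Without quantile normalization the log2 change of *UQCRC2* was 0.096 (limma adjusted p = 0.27). With the mean of probe sets that of *UQCRC2* was 0.28 (limma adjusted p = 0.051) and that of *UQCRB* was 0.089 (0.56). Neither passed with the arrays of 2 doses only (0.097 for *UQCRC2* and 0.106 for *UQCRB*) or with array weights (0.062 and 0.102).

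The nuclear subunits of complex IV surround a catalytic core that mitochondrial DNA encodes. *COX7B* had 13.50, 13.63, 13.45 and 13.49 at 3 µM, against 14.03, 14.30, 13.89 and 14.14 at 0 µM. It was lower in each line without overlap, at a log2 change of -0.57 (its standard error 0.06, limma adjusted p = 3.3e-05). *COX7A2* had 13.83, 13.51, 13.83 and 13.82 at 3 µM, against 14.15, 13.99, 14.16 and 14.11 at 0 µM (log2 change -0.35, limma adjusted p = 0.00031). *COX6A1* had 14.05, 13.80, 14.10 and 13.96 at 3 µM, against 14.45, 14.29, 14.30 and 14.32 at 0 µM (log2 change -0.36, limma adjusted p = 0.00037). Both genes encode the forms used by most tissues, and neither overlapped between the doses. *COX6C* fell by 0.27 (standard error 0.05, limma adjusted p = 0.00082) and *COX8A* by 0.22 (limma adjusted p = 0.0070, 0.064 without Aska-SS), while *COX6B1* did not pass (log2 change -0.14, limma adjusted p = 0.095). Without quantile normalization *COX6B1* passed, at -0.24 (limma adjusted p = 0.019).

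The forms of complex IV subunits known from muscle or testis were dim or uneven. *COX6A2* and *COX7B2*, and *COX8C*, lay below the filter on dim probe sets. *COX7A1*, the form of heart and skeletal muscle, had 9.90, 5.82 and 5.90 at 3 µM in SYO-1, Yamato-SS and Fuji, against 10.63, 6.28 and 6.41 at 0 µM. In Aska-SS it lay at the floor of 3.60, the value to which dimmer signals were raised, at each dose. It did not pass (log2 change -0.42, standard error 0.24, limma adjusted p = 0.17, and 0.048 without variance moderation). *COX6B2*, the testis form, had 7.60, 5.51, 6.62 and 6.86 at 3 µM, against 7.39, 6.29, 3.60 and 6.85 at 0 µM. The value of Yamato-SS at 0 µM was at the floor and accounted for the positive fitted change of 0.61 (standard error 0.51, limma adjusted p = 0.36), which was -0.19 without Yamato-SS.

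In complex V the genes of the c-ring, the rotor that protons turn, moved in opposite directions. *ATP5MC1*, *ATP5MC2* and *ATP5MC3* encode c subunits that differ in their import signals and are the same once processed. *ATP5MC1* had 11.95, 11.38, 11.73 and 11.93 at 0 µM, 11.18, 11.10, 11.25 and 11.23 at 0.3 µM, and 10.46, 10.72, 10.66 and 10.66 at 3 µM. No value at one dose reached the values of the next. The log2 change at 3 µM was -1.12 (standard error 0.11, limma adjusted p = 2.6e-05), a 2.18-fold lower signal. *ATP5MC3* had 14.03, 14.20, 13.96 and 14.01 at 0 µM, 13.74, 14.03, 13.91 and 13.71 at 0.3 µM, and 13.54, 13.79, 13.70 and 13.60 at 3 µM. It fell by 0.39 at 3 µM (standard error 0.06, limma adjusted p = 0.00021), without overlap between 3 and 0 µM. *ATP5MC2* had 13.45, 13.60, 13.67 and 13.17 at 0 µM, 13.70, 13.78, 13.83 and 13.65 at 0.3 µM, and 13.85, 13.98, 14.06 and 13.85 at 3 µM. Every line was higher at 3 µM than any line at 0 µM, and the gene rose by 0.46 (standard error 0.06, limma adjusted p = 0.00016), which is 1.37-fold. The log2 change of the pseudogene *ATP5MC2P1* was 0.06 (standard error 0.27, limma adjusted p = 0.88).

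**Figure D2:**
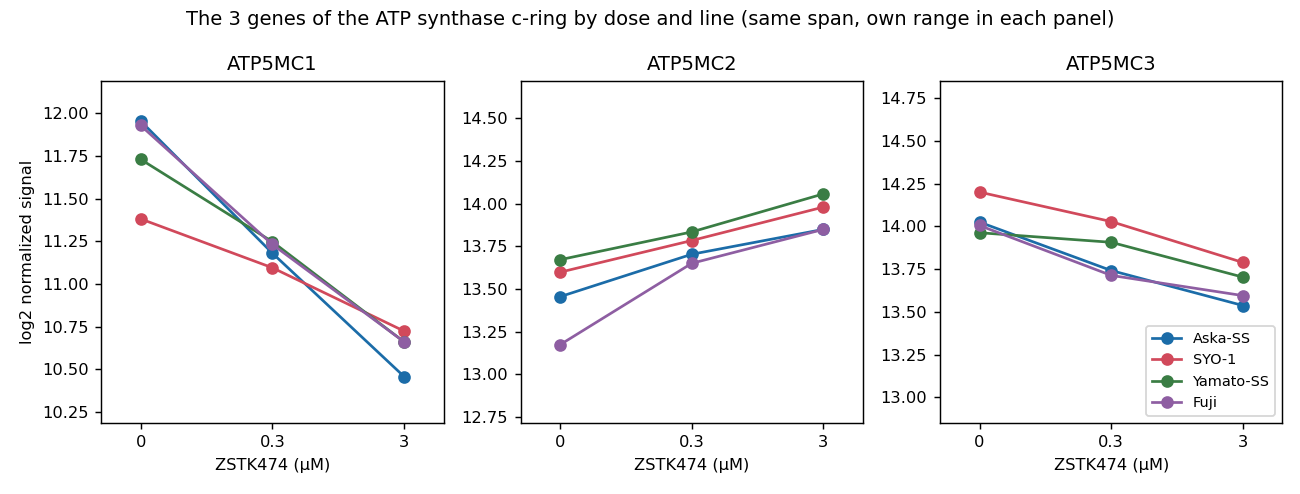
Log2 normalized signal (vertical axis, the same span but an own range in each panel) of the 3 c-ring genes at 0, 0.3 and 3 µM ZSTK474, with 1 point per array and 1 line per cell line. *ATP5MC1* and *ATP5MC3* were lower and *ATP5MC2* was higher with 3 than with 0 µM in 4 of 4 lines, with fitted log2 changes of -1.12, -0.39 and 0.46.

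Among the other parts of ATP synthase, 4 of 4 tested small membrane subunits fell, but not all of these calls were stable. *ATP5MJ* (-0.16, limma adjusted p = 0.046) did not pass without Aska-SS, SYO-1 or Fuji (adjusted p = 0.114, 0.24 and 0.122). In a fit of all tested probe sets its second probe set had a log2 change of 0.19 (limma adjusted p = 0.054), and its brightest did not pass either (0.054). *ATP5ME* (-0.22) did not pass without Aska-SS or SYO-1 (adjusted p = 0.075 and 0.13). The largest fall was in *ATP5MK*, which helps to hold ATP synthase dimers together, with 14.16, 14.03, 13.66 and 14.23 at 3 µM, against 14.64, 14.42, 13.96 and 14.58 at 0 µM (log2 change -0.38, standard error 0.05, limma adjusted p = 0.00020). Each line fell, and Yamato-SS was the lowest line at both doses. Of the F1 head and central stalk 2 of 5 fell, with *ATP5F1E* at -0.41 and *ATP5F1B* at -0.21, and of the peripheral stalk 2 of 4, with *ATP5PF* at -0.28 and *ATP5PD* at -0.24. The call of *ATP5F1B* was lost without Aska-SS, SYO-1 or Fuji (adjusted p = 0.243, 0.062 and 0.198) and without quantile normalization (0.073). With the mean of probe sets those of *ATP5F1E* (-0.44, limma adjusted p = 0.071) and *ATP5PD* (0.06, 0.74) were lost. *ATP5IF1*, the protein that stops ATP synthase from running in reverse, had 11.07, 11.35, 11.67 and 11.96 at 3 µM, against 11.83, 11.67, 11.65 and 12.17 at 0 µM. Aska-SS fell by 0.76 and Yamato-SS was higher by 0.02, and its fall (log2 change -0.31, standard error 0.11, limma adjusted p = 0.030) did not pass in the absence of Aska-SS, SYO-1 or Fuji (adjusted p = 0.204, 0.101 and 0.055).

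At the lower dose few members passed. At 0.3 µM 5 members fell, 7.04% of the 71, where 3.35% of all genes were lower, and 1 rose, 1.41%, where 4.57% of all genes were higher. The median log2 change was -0.10. The genes that fell encode subunits of complexes I, III, IV and V. *NDUFA9* had 10.92, 11.96, 11.71 and 11.33 at 0.3 µM, *UQCRQ* 13.65, 13.29, 13.13 and 13.61, *COX7B* 13.72, 14.02, 13.85 and 13.79, and *CYC1* 12.12, 14.04, 13.68 and 12.72. Their log2 changes against 0 µM were -0.43 for *NDUFA9* (standard error 0.09, limma adjusted p = 0.020), -0.28 for *UQCRQ* (standard error 0.06, 0.022), -0.24 for *COX7B* (standard error 0.06, 0.036) and -0.24 for *CYC1* (standard error 0.07, 0.047). *ATP5MC1* fell by 0.56 (standard error 0.11, limma adjusted p = 0.019), and *ATP5MC2* rose by 0.27 (standard error 0.06, limma adjusted p = 0.029). Without Aska-SS or without Fuji 0 members fell at 0.3 µM (limma, 7 and 10 at an unadjusted p under 0.05), without SYO-1 1 and without Yamato-SS 4, and without any 1 of the lines 0 rose (1 to 3 at an unadjusted p under 0.05). Over all genes tested, the share lower at this dose also fell, to 0% with Aska-SS left out, 0.165% with Fuji, 0.828% with SYO-1 and 1.23% with Yamato-SS.

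Between 0.3 and 3 µM 26 members fell, 36.6%, where 8.09% of all genes were lower, and 0 rose (limma, 4 at an unadjusted p under 0.05), where 7.25% of all genes were higher. The median log2 change of this step was -0.20. In complex I 13 of 32 fell, in complex III 2 of 7, in complex IV 4 of 11 and in complex V 7 of 17. *NDUFS6* fell by 0.76 in this step (standard error 0.11, limma adjusted p = 0.0024) and *UQCRQ* by 0.50 (standard error 0.06, limma adjusted p = 0.0015). Without 1 line the count was 10 (Aska-SS), 4 (SYO-1), 19 (Yamato-SS) or 17 (Fuji), where 3.30%, 2.86%, 4.97% and 6.54% of all genes were lower. The comparisons share arrays, so their values are not independent of each other.

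**Figure D3:**
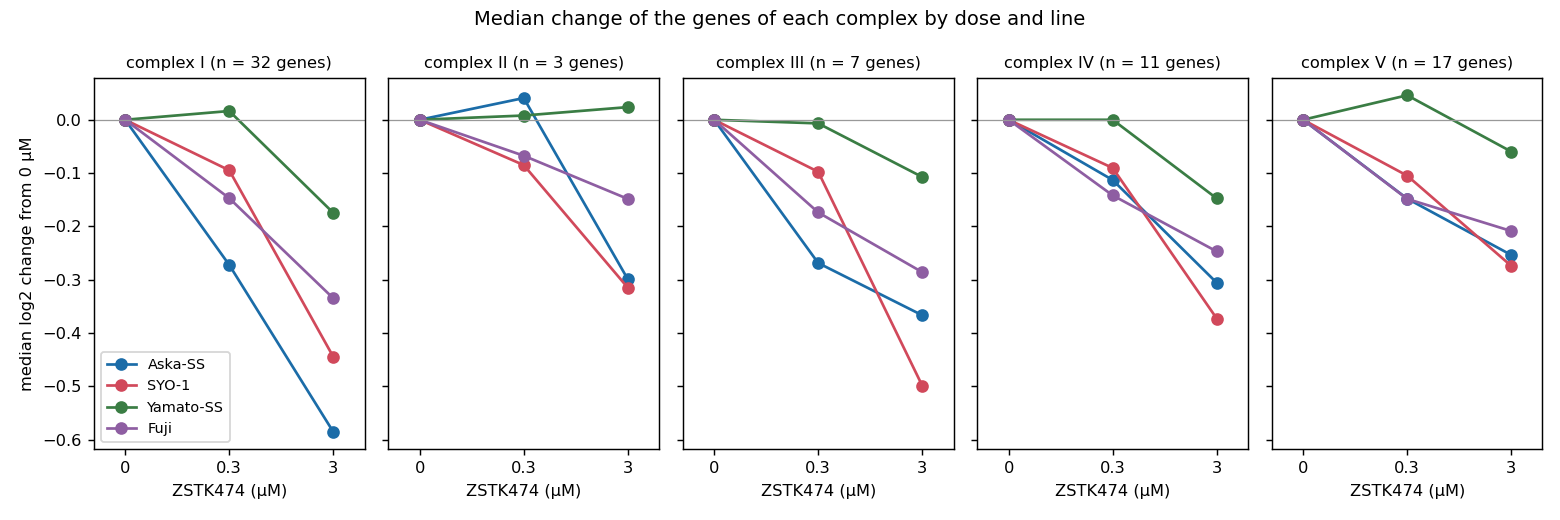
Median log2 change from 0 µM (vertical axis) of the tested genes of each complex at 0.3 and 3 µM ZSTK474, with 1 line per cell line. Complex I at 3 µM spans -0.59 in Aska-SS to -0.17 in Yamato-SS, and Yamato-SS is the uppermost line in each panel at 3 µM.

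The size of the fall varied among the lines. The median log2 change of the 71 members at 3 µM was -0.41 in Aska-SS, -0.25 in Fuji, -0.34 in SYO-1 and -0.11 in Yamato-SS, and at 0.3 µM it was -0.21, -0.15, -0.10 and 0.01 in the same order. The number of members below their 0 µM value at 3 µM was 64 in SYO-1, 59 in Aska-SS, 53 in Fuji and 47 in Yamato-SS. Among the 45 genes that fell, the fall was smallest in Yamato-SS for 33 (73.3%) and largest in Aska-SS for 26 (57.8%). Among all 2561 genes lower at 3 µM, Yamato-SS had the smallest fall in 35.2% and Aska-SS the largest in 26.5%. With 1 array per line and dose, a difference in response between lines cannot be tested for a line. Without Yamato-SS 46 members fell at 3 µM, where 19.4% of all genes were lower, and without Aska-SS 33, where 16.7% were.

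The levels themselves differed among the lines for many members, but for no larger share than among all genes. The F-test of the cell line in the same fit passed for 53 of 71 members (74.6%), where 81.7% of all genes passed. The range between the highest and the lowest line mean had a median of 0.51 for the members and 0.94 for all genes. SYO-1 was the highest line for 29 members and Yamato-SS the lowest for 29. *COX7A1* had the widest range, 6.74, with line means of 10.33 in SYO-1, 6.10 in Yamato-SS, 6.09 in Fuji and the floor of 3.60 in Aska-SS, where Yamato-SS and Fuji do not differ beyond their spread over the doses. *COX6B2* followed with a range of 1.94 (limma adjusted p = 0.046), which rests on the 1 floor value in Yamato-SS.

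*NDUFV1*, the core subunit that binds NADH, was high in Yamato-SS, with 13.67, 13.74 and 13.92 at 0, 0.3 and 3 µM. The other lines lay between 11.75 and 12.46 at all doses. *CYC1* had line means of 14.03 in SYO-1, 13.70 in Yamato-SS, 12.78 in Fuji and 12.29 in Aska-SS, an order that each dose showed. *NDUFA6* was lowest in Aska-SS, with a line mean of 11.61, against 12.60 in Yamato-SS, 12.77 in Fuji and 13.09 in SYO-1. The adjusted p of the F-test was 4.8e-08 for *NDUFV1*, 4.0e-09 for *CYC1* and 6.2e-07 for *NDUFA6* (limma). The 3 arrays of a line are its 3 doses, so this test does not separate a line from its single set of cultures.

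**Figure D4:**
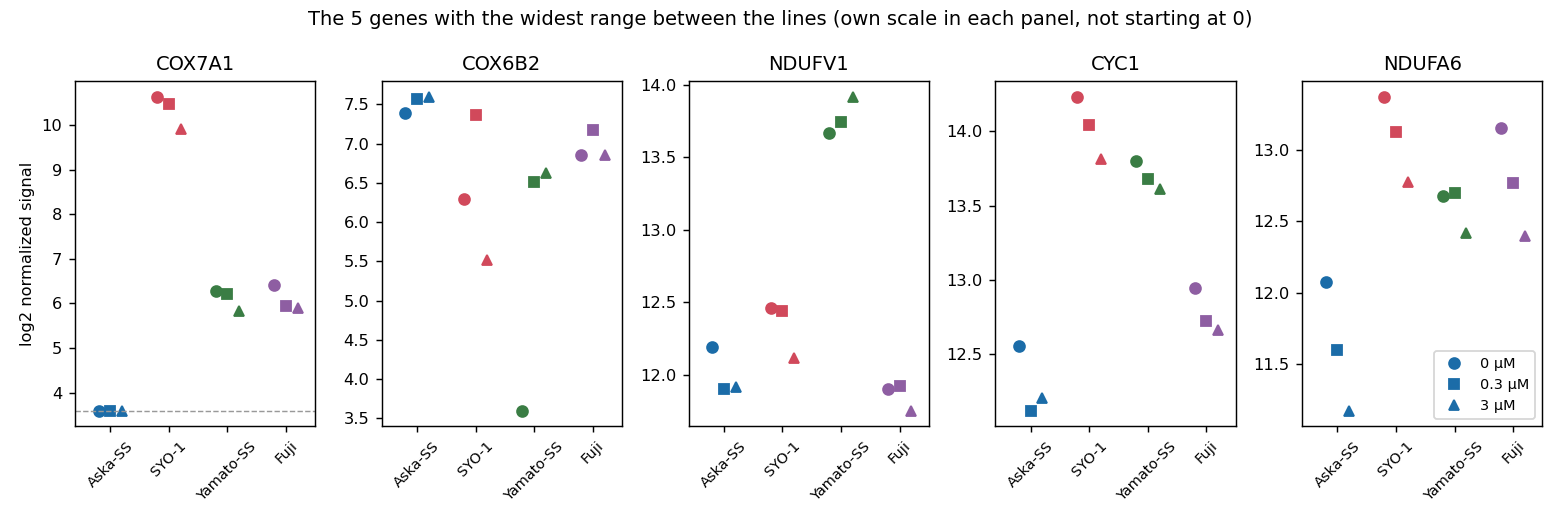
Log2 normalized signal (vertical axis, an own range in each panel, not starting at 0) of the 5 members with the widest range between the lines, with circles for 0 µM, squares for 0.3 µM and triangles for 3 µM. The dashed line in the panel of *COX7A1* is the floor of 3.60, where all 3 Aska-SS arrays lie, and *NDUFV1* in Yamato-SS lies above 13.6 at each dose.

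Genes that the name pattern leaves out moved in part the same way. *CYCS*, cytochrome c itself, had a larger fall than any member, at a log2 change of -1.54 (its standard error 0.18, limma adjusted p = 5.8e-05), and *NDUFAB1*, the acyl carrier protein of complex I, fell by 0.45 (standard error 0.05). *COX7A2L*, which links complexes III and IV into supercomplexes, rose by 0.57 (standard error 0.09, limma adjusted p = 0.00034). *COX4I1* (-0.04) and *COX4I2* (-0.17), the forms of the largest nuclear subunit of complex IV, did not pass. Of 52 tested factors that assemble the complexes, 26 fell and 4 rose (median -0.30). *NDUFAF5*, a factor for complex I, fell by 1.37 (standard error 0.15, limma adjusted p = 4.1e-05), and *CMC2*, for complex IV, by 1.04. The 4 that rose were *LRPPRC* (0.65), which stabilizes mitochondrial mRNA, *SURF1* (0.51), *ECSIT* (0.43) and *COA5* (0.30).

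Of 11 tested regulators of mitochondrial genes 5 fell and 0 rose (limma, 1 at an unadjusted p under 0.05), with a median of -0.15. They were *TFAM* (-0.79) and *TFB2M* (-0.37), which start transcription of mitochondrial DNA, the coactivators *PPRC1* (-0.81) and *PPARGC1B* (-0.72), and *GABPB1* (-0.82), a subunit of GABP. *NRF1* itself did not pass (log2 change -0.01, standard error 0.12, limma adjusted p = 0.98), and *GABPA*, the subunit of GABP that binds DNA, had 0.19 (standard error 0.09, limma adjusted p = 0.12). Of 75 genes for proteins of the mitochondrial ribosome 46 fell and 6 rose (median -0.39), 61.3% lower, close to the 63.4% of the members. Of 12 tested enzymes of the TCA cycle 5 fell, with *IDH3A* at -0.90, and *SUCLG2* rose by 0.33 (median -0.13). Of genes encoded by mitochondrial DNA, 0 were tested here.

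**Figure D5:**
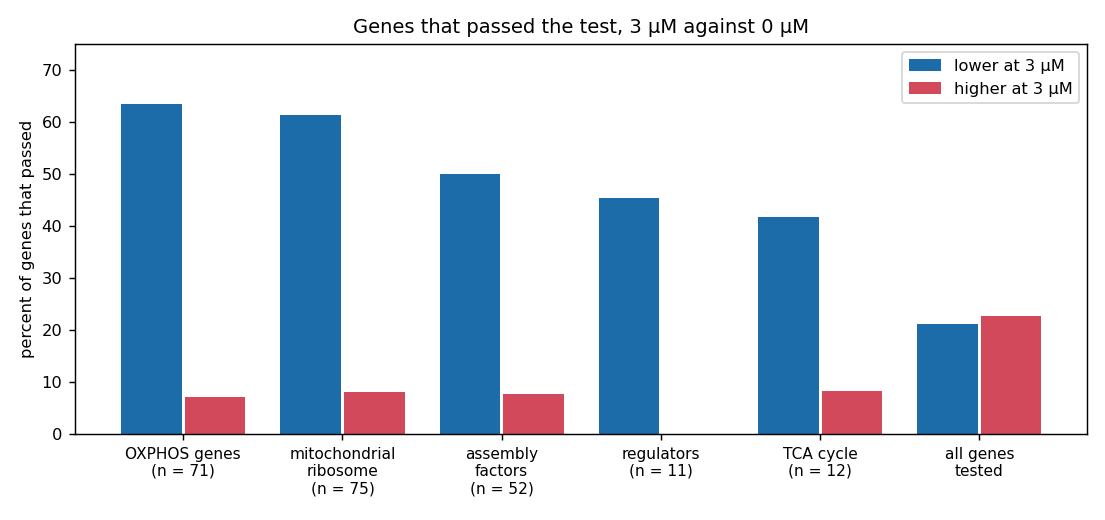
Percent of the tested genes of each list that passed as lower (blue) and as higher (red) at 3 µM relative to 0 µM ZSTK474, with all 12132 genes tested at the right. The OXPHOS genes had 63.4% lower and 7.04% higher, against 21.1% and 22.6% of all genes.

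Several members have more than 1 probe set, which can read different parts or forms of a transcript. Of 31 members with over 1 tested probe set, 13 had probe sets whose fitted changes differed in sign, but in 0 were 2 probe sets called in opposite directions. The rise of *NDUFA10* (log2 change 0.25) had the same sign on its second tested probe set (0.43, standard error 0.30). That probe set was dim (mean log2 signal 6.07) and did not pass in a fit of all tested probe sets (limma adjusted p = 0.28). The brighter probe set that stood for *NDUFA10* did not pass in that fit either (limma adjusted p = 0.051). For *UQCRB* 2 of the other 3 rose and passed in that fit (0.25 and 0.32, limma adjusted p = 0.028 and 0.017). The remaining one, at -0.42, was dim (mean log2 signal 6.03) and did not pass (limma adjusted p = 0.42). *ATP5MC3* fell on each of 3 probe sets (-0.39, -0.33 and -0.64), and *ATP5MC1*, *ATP5MC2* and *NDUFB5* each rest on 1 tested probe set. *ATP5F1D* (0.04) and *COX5B* (-0.12) did not pass on their brightest probe sets. A dimmer one of each fell and passed in the fit of all tested probe sets (-0.40 and -0.49, limma adjusted p = 0.015 and 0.012). The remaining probe sets of *COX5B* did not pass.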

How the data were processed

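The 12 arrays are the 4 SS lines at 3 doses of ZSTK474. The deposited values are linear signal intensities from MAS5 (no version in the sources used here), which the authors had scaled to a trimmed mean of about 500, with medians of 60.1 to 85.3. The study's methods name quantile normalization, which the deposited intensities do not show, so it was applied here. Signals under the 20th percentile (12.1) were set to that floor and converted to log2. After removal of 62 control probe sets, those above the median (log2 6.03) were kept. Of 54675 probe sets 41091 have 1 gene symbol in the platform annotation, 1801 have several and 11721 have none, and only the first kind was named. No detection calls were used, and the precision is limited by how few arrays there are.

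All 12132 genes were fitted with limma 3.58.1 in R 4.3.3, with the cell line as a block, the dose as a factor and moderated variances. Replicate numbers stand for the lines, and the block pairs the arrays: after subtracting dose means, arrays of one line correlated at r = 0.828 to 0.931 and those of separate lines at -0.43 to -0.0892. Subtracting dose means by itself pushes the correlations of separate lines below 0, so their sign says nothing about the pairing. The fit was tested on simulated data. Named are the 4 smallest adjusted p-values of each complex, members that rose, the 5 largest changes each way, calls at 0.3 µM, isoform genes, *ATP5IF1* and the 5 widest line ranges. Genes outside this rule were named with their values in view. The members, lists and rules were chosen with earlier results of these data known. Promoters are those of RefSeq. The counts of members that passed and their median change were recomputed under other settings. The same was done for named or passing members at the higher dose relative to the control. The settings were no quantile normalization, log2 of the signal plus 16 in place of the floor, and the floor at the 40th percentile. The filter was absent or at the 65th percentile, or probe sets of a gene were averaged. Other fits had no block, 2 doses at a time, unmoderated variances, array weights, or each line omitted. The count of the cell line test was recomputed too, but not without the block or from 2 doses. Counts by complex, single genes at 0.3 µM or between the doses, and lists outside the members were not recomputed. Lists of changed genes made by the authors were not used.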

Additional observations from a re-analysis of the deposited data

Results flagged for a closer look

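In 6 of 105 groups of 4 lines examined (the signals of named members at each dose and the median changes of the complexes), the highest or lowest line lay so far from the nearest other line that the gap's share of the group's range passed the critical value of Dixon's test. Chance flags about 1 in 20 independent groups, and this number is near that rate. The groups share genes and lines and are not independent, and whether the flags arose by chance was not tested.

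*NDUFV1* at 3 µM was high in Yamato-SS (log2 signal 13.917), where the other lines lay at 11.75 to 12.12. *UQCR10* was low in Aska-SS, at 11.7277 with 3 µM, where the others lay at 13.00 to 13.12, and at 12.1642 with 0.3 µM, where the others lay at 13.28 to 13.50. *COX7A2* at 3 µM was low in SYO-1 (13.5142, the others 13.82 to 13.83). *COX6B1* at 3 µM was low in Aska-SS (12.8664, the others 13.07 to 13.11). *ATP5MK* at 0.3 µM was low in Yamato-SS (13.917, the others 14.30 to 14.38).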

How the results depend on the processing

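Without the replicate block, which removes the pairing by cell line, 5 members fell and 0 rose at 3 µM relative to 0 µM, and 0 passed in either direction at 0.3 µM relative to 0 µM (2 and 1 at an unadjusted p under 0.05) or at 3 µM relative to 0.3 µM (13 and 0), all in limma. Leaving out 1 line gave 33 to 46 lower and 2 to 4 higher members at 3 µM relative to 0 µM. Of all genes, 16.7% to 19.4% were then lower and 18.6% to 20.8% higher. The median log2 change of the members was -0.34 to -0.22. At 0.3 µM leaving out 1 line gave 0 to 4 lower and 0 higher (range 0 to 0), where up to 1.76% of all genes were higher. For the step between the doses it gave 4 to 19 lower and 0 to 1 higher, where 2.03% to 5.55% of all genes were higher. The cell line test passed for 44 to 53 members with 1 line omitted, and the share of all genes was not computed there. The count of 5 members that rose at 3 µM was 3 without quantile normalization, without the filter on dim probe sets and without variance moderation, and 2 with the mean of probe sets, the arrays of the 2 doses only or array weights. At 0.3 µM 0 members fell and 0 rose without the filter (limma, 17 and 2 at an unadjusted p under 0.05) and without variance moderation (17 and 3). Of all genes, 0.207% and 0.140% were lower in these 2 settings. With 2 doses only 8 members fell (11.3%), with array weights 14 (19.7%) and with a filter at the 90th percentile 8 (11.8%). The last alternative was chosen after seeing the data. The share of all genes lower also rose, from 3.35% to 5.36%, 7.88% and 9.41% in the same order. For the step between the doses 13 fell without the filter and 10 without variance moderation, where 2.82% and 3.46% of all genes were lower. In that step 2 rose with 2 doses only, array weights or the 90th percentile, where 9.95%, 9.79% and 14.3% of all genes were higher. With the filter at the 90th percentile, which keeps only bright genes, 45 of 68 members fell at 3 µM, 66.2%, where 32.6% of 3528 genes were lower. Whether the members are as bright as the other genes kept was not tested. The log2 change reversed for *COX6B2* without Yamato-SS (-0.19, up to 1.08 without SYO-1) and for *SDHD* without Fuji (-0.078, up to 0.25 without SYO-1). With the mean of probe sets 37 of the 45 genes that fell kept the call, and *NDUFC1* (0.15), *ATP5PD* (0.06) and *ATP5MJ* (0.01) changed sign without passing. Of those 45, 44 kept it without quantile normalization, 38 without the filter, 39 without variance moderation, 35 with 2 doses only, 42 with array weights and 33 to 44 with 1 line omitted. The median of all genes was 0.09 without quantile normalization, against 0.01 with it. Without it 47 members fell, where 19.6% of all genes were lower. Among single named genes, 389 values under alternatives kept direction and call, 50 lost the call, 4 gained it and 2 reversed. The causes of these shifts were not tested.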
